A study of Homo sapiens with 6 samples.

Results

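The genes that write, read and erase DNA methylation were examined in MDA-MB-231 cells, an established human breast cancer line of the triple-negative, basal-like type, grown with or without S-adenosylmethionine (SAM). The 9 genes were chosen by name: DNMT1, DNMT3A, DNMT3B, UHRF1, MBD2, TET1, TET2, TET3 and TDG. The platform annotation names a row for 8 of them, and TET1 has 2 rows, so 9 of the 53617 rows of the deposited table (transcript clusters, the array's gene-level units) are described. TET3 has no row under its name and was not analysed here. RNA came from 3 control cultures and 3 cultures given 200 μM SAM every other day, each hybridized to 1 Affymetrix Human Gene 2.0 ST array. Both groups grew in DMEM with FBS. The labels call the controls untreated, whereas the study names vehicle controls for its other culture assays, and the day of harvest for the arrays is not given in the sources used here. The methods speak of independent experiments, and the line is a single one, so the p-values measure the spread between cultures of 1 line.

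SAM is the methyl donor that every DNA methyltransferase uses. In background knowledge, DNMT1 copies methylation to the new strand after replication, guided by UHRF1, a reader of hemimethylated CpG sites, while DNMT3A and DNMT3B methylate sites de novo. MBD2 reads methylated CpG and brings in the NuRD repressor complex. The TET enzymes oxidize 5-methylcytosine, and the glycosylase TDG cuts out the oxidized bases for repair. The comparison asks whether their own transcripts differed between SAM-treated and control cells.

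No member passed the thresholds of the study's methods, an unadjusted P under 0.01 with a fold change over 1.5. TET2 came closest and was 1.47-fold lower in SAM-treated cells (95% interval 1.11 to 1.94, n = 3 arrays in each group). DNMT3B was 1.26-fold lower (0.991 to 1.61) and MBD2 1.10-fold higher (0.905 to 1.34), and in these 3 genes the SAM and control arrays did not overlap. Among all rows 7.95% were lower and 7.12% higher in SAM arrays without overlap. DNMT1, UHRF1, DNMT3A, TET1 and TDG overlapped between groups. UHRF1 and DNMT1 were lowest in control replicate 2, an array in which genes of DNA replication were also lowest.

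A few facts of the whole series bear on these values. Each value is a log2 signal after RMA, log2 differences are SAM minus control, and the median signal was 4.75 to 4.85 across arrays. Control replicate 1 had the lowest mean correlation with the other arrays (0.964, against 0.974 to 0.98), and control replicate 2 had the lowest signal for all 20 measured S phase genes. Of 10 markers of MDA-MB-231 cells 8 were measured. VIM (vimentin) was at 9.57, 9.31 and 9.52 in control arrays against 9.19, 9.10 and 9.25 in SAM arrays. CD44 was at 7.85, 7.58 and 7.67 against 8.16, 7.95 and 8.22, and KRT8 lay at 5.87 to 6.62. Of the 8 markers 2, VIM and MSN, were lower and 1, CD44, was higher in SAM arrays without overlap. Among all rows 7.95% were lower and 7.12% higher without overlap. Of 9 luminal markers 6 were measured, with a mean of 5.79 to 5.84 in control and 5.78 to 5.83 in SAM arrays. They were not all dim: the hormone receptor genes ESR1 and PGR lay at 4.80 to 5.37 and 3.54 to 4.44, FOXA1 at 4.84 to 5.17, GATA3 at 5.67 to 6.13 and EPCAM at 6.21 to 6.72. KRT19, an epithelial keratin gene, was at 8.59, 8.21 and 8.24 in control arrays against 7.90, 7.86 and 7.92 in SAM arrays, without overlap, and ESR1 was higher in SAM arrays without overlap. Of the leukocyte, endothelial and stromal markers 4 of 8, 4 of 6 and 2 of 8 were measured. The endothelial mean was 4.86 to 4.96 in control and 4.72 to 4.95 in SAM arrays, with PECAM1 at 5.44 to 5.85, KDR at 5.46 to 5.94, VWF at 4.36 to 5.19 and EMCN at 3.01 to 3.54. The stromal genes LUM, at 3.14 to 4.14, and DCN, at 2.62 to 2.91, lay under the array medians. The mean of these 2 genes was 3.01 to 3.52 in control and 2.93 to 3.23 in SAM arrays. The mean of the 4 leukocyte markers was 6.53 to 6.61 in control and 6.62 to 6.78 in SAM arrays. Among them CD68, a lysosomal gene, was at 10.35, 10.37 and 10.24 against 10.87, 10.61 and 10.64. CD14 lay at 6.21 to 6.77, CD2 at 4.85 to 5.21 and LYZ at 4.28 to 4.64, while PTPRC and CD3E have no named row. The part of other cell types or of KRT19 and CD68 in the results was not tested. In all, 582 rows, or 1.09% of those tested, passed both thresholds. The paper reports a smaller count at the same thresholds, and the reason for the difference was not tested. Of the rows tested here, 0 had an adjusted p under 0.05 in limma (lowest 0.245) and 4285 (7.99%) had an unadjusted P under 0.05. Against this background 0 of 8 members passed both thresholds in limma, and 1 of 8, TET2, had an unadjusted P under 0.05.

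**Figure D1:**
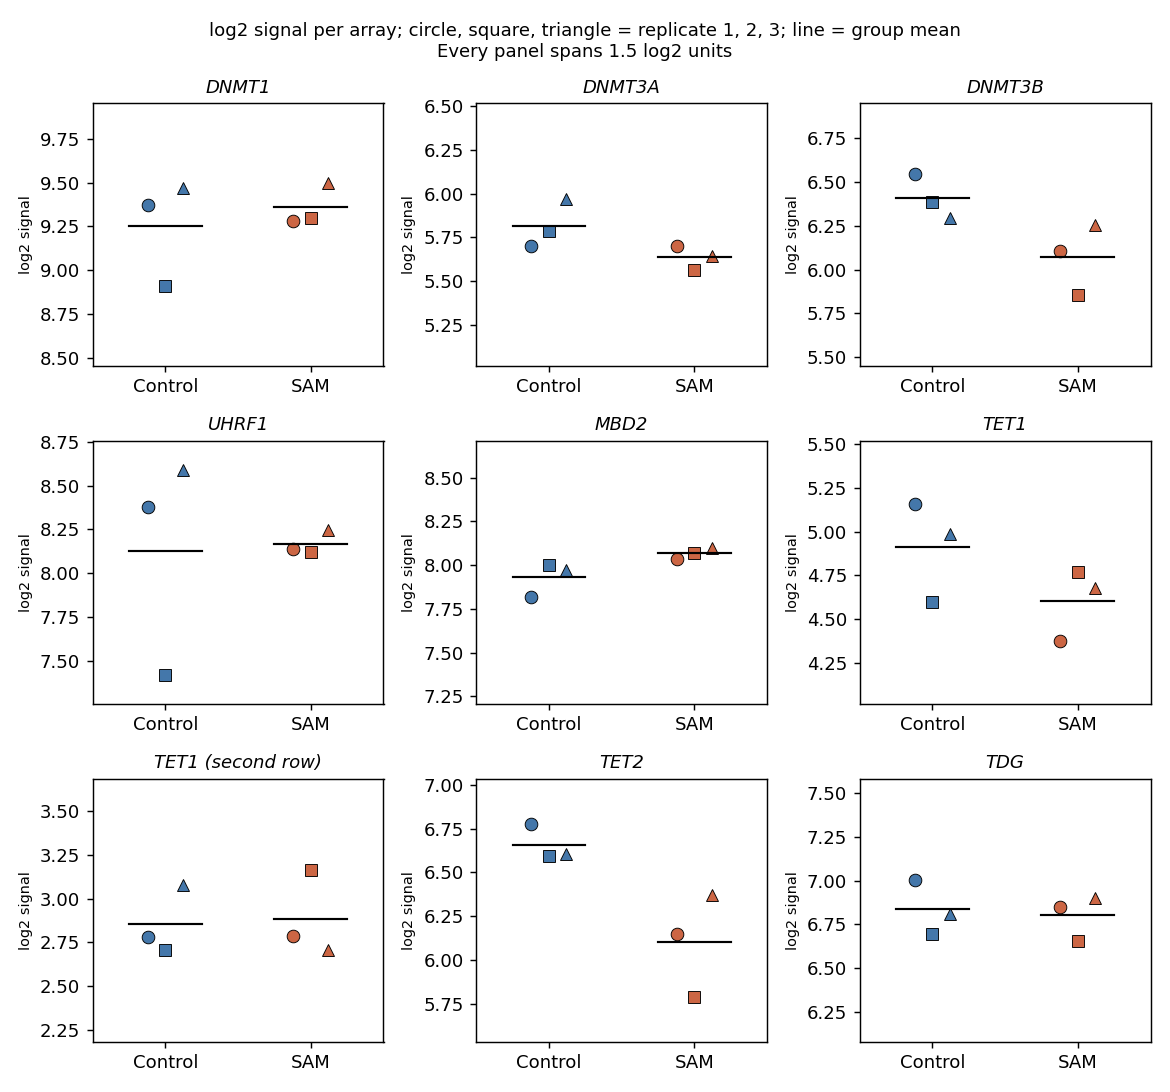
Log2 signal (vertical axes, each spanning 1.5 log2 units) of the 9 rows in the 3 control and 3 SAM arrays, with symbols for the replicate number and lines for the group means. The SAM arrays of TET2 lie at 5.79 to 6.37, below the control arrays at 6.59 to 6.78, and UHRF1 in control replicate 2 stands apart at 7.42.

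The TET enzymes hold the member with the smallest P. TET2 had a log2 signal of 6.78, 6.59 and 6.61 in the control arrays and of 6.15, 5.79 and 6.37 in the SAM arrays. Every SAM array was below every control array, with SAM replicate 2 the lowest. On the log2 scale SAM minus control was -0.56 (SE 0.17, n = 3 arrays in each group), with an unadjusted P of 0.0131 and an adjusted p = 0.575 in limma. By P it ranked 1213 among the 53617 rows. Groups that do not overlap with SAM lower were found in 7.95% of all rows, and the exact permutation test (two-sided) gave p = 0.1, the smallest that 3 arrays against 3 allow. Leaving out 1 array moved the log2 fold change between -0.40 (without SAM replicate 2) and -0.69 (without SAM replicate 3), and without SAM replicate 3 alone TET2 passed both thresholds (unadjusted P of 0.00666 in limma). With a trended and robust variance in limma its unadjusted P was 0.0092, and the fold change of 1.47 still kept it from being called.

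TET1, the founding member of the family, was dim in both of its rows, which the annotation assigns to the same RefSeq transcript. In the brighter row it was at 5.16, 4.60 and 4.99 in the control arrays and at 4.37, 4.77 and 4.68 in the SAM arrays. Control replicate 2 fell among the SAM arrays, so the groups overlapped. The difference was -0.31 (SE 0.19, 95% interval -0.74 to 0.13, adjusted p = 0.691 in limma), and the estimate depended on single arrays. It was -0.47 without control replicate 2, -0.19 without control replicate 1 or without SAM replicate 1, and -0.14 when both rows were averaged. The dimmer row lay at 2.70 to 3.08 in control and 2.70 to 3.16 in SAM arrays, under the median of every array, and differed by 0.029 (SE 0.17). The 2 rows therefore gave different point estimates, and the interval of each held 0. Whether the dimmer row measures the same RNA as the brighter one, or which strand its probes cover, was not examined.

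TDG, the glycosylase that acts after the TET enzymes, was at 7.002, 6.70 and 6.81 in control arrays and at 6.85, 6.66 and 6.90 in SAM arrays. The SAM values lay within the range of the controls but for SAM replicate 2, which was slightly lower. Its log2 difference was -0.035 (SE 0.14, 95% interval -0.36 to 0.29), and the sign turned under renewed quantile or cyclic loess normalization. The interval leaves room for a fold change of 1.28 downwards or 1.22 upwards.

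Of the methyltransferases, DNMT3B had the smallest P. Its log2 signal was 6.54, 6.39 and 6.30 in the control arrays and 6.10, 5.85 and 6.26 in the SAM arrays. The groups did not overlap, but control replicate 3 and SAM replicate 3 lay next to each other. As for TET2, SAM replicate 2 was the lowest array. This gave a log2 difference of -0.34 (SE 0.15, 95% interval -0.69 to 0.013), with an unadjusted P of 0.0569 and an adjusted p = 0.638 in limma. The estimate lay between -0.23 and -0.43 whichever array was left out. TET2 and DNMT3B were the 2 members lower in SAM-treated cells without overlap, so 2 of 8 members met what 7.95% of all rows met.

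The promoter windows of these 2 genes are shown because cytosines in CpG are the substrate of the members themselves. Each window runs from 250 bases before to 50 bases after a RefSeq transcription start (GRCh38.p14, gene strand), and capitals mark CpG. The arrays measured no methylation, and the RefSeq table does not say which start these cells use. Across the 35116 windows of that table the median was 14 CpG. The windows of TET2, on the plus strand of chromosome 4, lie at chr4:105145625-105145924 and chr4:105146626-105146925 and hold 13 and 35 CpG. The only RefSeq window found for DNMT3B, on the plus strand of chromosome 20, lies at chr20:32779602-32779901. It holds 3 CpG, a number that 81.8% of windows reach or pass. Other starts of DNMT3B were not examined, so this number does not describe every DNMT3B promoter.
TET2, first window: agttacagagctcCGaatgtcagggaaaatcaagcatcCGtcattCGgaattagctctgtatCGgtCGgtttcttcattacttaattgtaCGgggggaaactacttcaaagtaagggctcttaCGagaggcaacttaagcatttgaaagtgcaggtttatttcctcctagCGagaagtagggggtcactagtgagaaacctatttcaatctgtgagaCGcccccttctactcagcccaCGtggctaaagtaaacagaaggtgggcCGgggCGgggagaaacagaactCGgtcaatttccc
TET2, second window: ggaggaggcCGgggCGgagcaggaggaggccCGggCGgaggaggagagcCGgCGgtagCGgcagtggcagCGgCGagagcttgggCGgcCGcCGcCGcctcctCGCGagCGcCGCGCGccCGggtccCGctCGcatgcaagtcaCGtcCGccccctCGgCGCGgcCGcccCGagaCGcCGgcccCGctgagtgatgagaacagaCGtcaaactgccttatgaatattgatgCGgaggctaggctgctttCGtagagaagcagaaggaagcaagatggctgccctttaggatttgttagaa
DNMT3B: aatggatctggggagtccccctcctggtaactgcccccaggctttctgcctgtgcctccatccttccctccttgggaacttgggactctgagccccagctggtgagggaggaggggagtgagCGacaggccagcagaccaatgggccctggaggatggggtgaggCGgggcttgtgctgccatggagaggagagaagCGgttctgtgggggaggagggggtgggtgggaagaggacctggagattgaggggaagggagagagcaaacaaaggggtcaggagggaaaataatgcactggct

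The other de novo enzyme, DNMT3A, was at 5.698, 5.784 and 5.967 in control arrays and at 5.700, 5.565 and 5.643 in SAM arrays. The lowest control array and the highest SAM array were nearly equal, with the SAM array above, so the groups overlapped. The log2 difference was -0.18 (SE 0.13, 95% interval -0.48 to 0.12, adjusted p = 0.724 in limma), and it was -0.11 without control replicate 3.

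DNMT1, the maintenance enzyme, had a log2 signal of 9.37, 8.91 and 9.47 in the control arrays and of 9.28, 9.30 and 9.50 in the SAM arrays. SAM replicates 1 and 2 fell among the controls, SAM replicate 3 was the highest of the 6 arrays and control replicate 2 the lowest. DNMT1 differed by 0.11 (SE 0.18, 95% interval -0.30 to 0.52, adjusted p = 0.883 in limma), and it turned to -0.064 without control replicate 2. By control signal DNMT1 lay above 97.6% of the 14884 named genes, UHRF1 above 91.4%, MBD2 above 89.5%, TDG above 73%, TET2 above 69.7%, DNMT3B above 64.6%, DNMT3A above 51.9% and TET1 above 31%. Probes differ in affinity, so these shares describe each signal and do not rank transcript numbers between genes.

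UHRF1, which recruits DNMT1 to replicated DNA, varied most among the control cultures. It was at 8.38, 7.42 and 8.59 in control arrays and at 8.14, 8.12 and 8.25 in SAM arrays. The SAM arrays lay close together, between the low control replicate 2 and the other controls. The mean difference was 0.039 with the widest interval of the members (SE 0.29, 95% interval -0.63 to 0.71, adjusted p = 0.977 in limma). Without control replicate 2 it was -0.32, with an unadjusted P of 0.0735 in limma, so the sign of the UHRF1 difference rested on that array. Both DNMT1 and UHRF1 are known as genes that rise when cells enter S phase.

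Genes of DNA replication were therefore set beside these 2 members, from a list of 27 of which 20 were measured. Their mean log2 signal was 8.06, 7.36 and 8.24 in the control arrays and 8.18, 8.02 and 8.26 in the SAM arrays. Control replicate 2 was the lowest of the 6 arrays for 20 of the 20 genes. Of the 20, 19 had a positive log2 fold change, with a median of 0.27, and the median was -0.012 without control replicate 2. None (0) passed both thresholds and 0 had an unadjusted P under 0.05 in limma. CCNE2, which encodes a cyclin of the G1 to S transition, had the smallest P (log2 difference 0.72, SE 0.31), and the transcription factor gene E2F1 and the replication licensing gene CDC6 followed by P (0.32, SE 0.20, and 0.32, SE 0.21). In RNA from a whole culture, fewer cells in S phase and less of these RNAs per cell cannot be told apart. Whether control replicate 2 differed in growth was not tested.

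**Figure D2:**
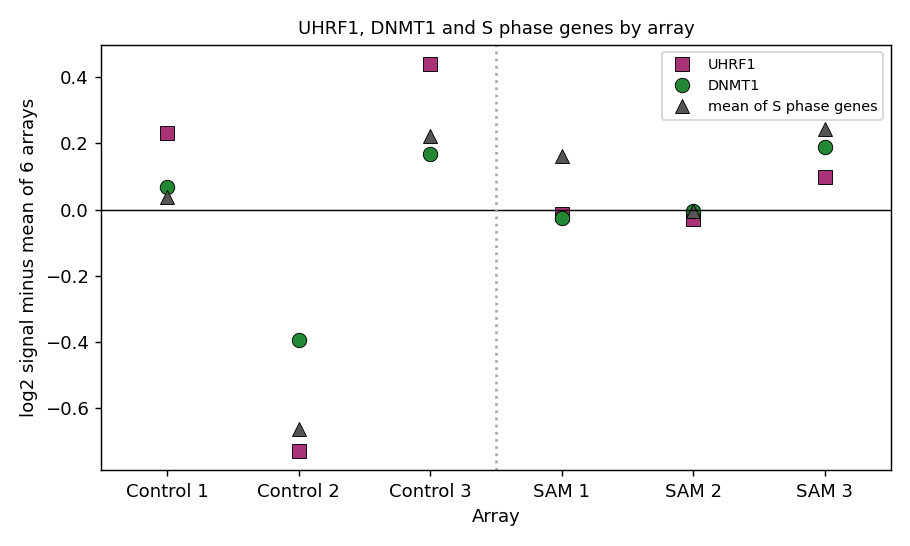
Log2 signal of UHRF1 (squares), of DNMT1 (circles) and of the mean of 20 S phase genes (triangles), each minus its own mean over 6 arrays (vertical axis), for each array (horizontal axis). All 3 are lowest in control replicate 2, where UHRF1 was at 7.42, DNMT1 at 8.91 and the S phase mean at 7.36.

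The promoter windows of the 2 members that were lowest in control replicate 2 are shown with matches to the E2F motif, the site through which E2F factors act on many S phase genes. The words searched, on both strands, were TTTCCCGC, TTTCGCGC, TTTGCCGC and TTTGGCGC, and capitals mark a match in either orientation. Such a word was found in 3.31% of the 35116 windows. Every word searched holds a CpG, and the windows shown or named here are rich in CpG. That of DNMT1 holds 30 and those of UHRF1 hold 36, 40 and 46, against a median of 14. The share over all windows is therefore not a like background, and windows of equal CpG number were not compared. The window of DNMT1, on the minus strand of chromosome 19, lies at chr19:10194904-10195203 and holds 1 match. Of the 3 windows of UHRF1, on the plus strand of the same chromosome, those at chr19:4909251-4909550 and chr19:4909894-4910193 hold 1 match each, and the one at chr19:4910117-4910416 holds none. No window of the other members holds one. A match describes these letters only, and factor binding was not measured.
DNMT1: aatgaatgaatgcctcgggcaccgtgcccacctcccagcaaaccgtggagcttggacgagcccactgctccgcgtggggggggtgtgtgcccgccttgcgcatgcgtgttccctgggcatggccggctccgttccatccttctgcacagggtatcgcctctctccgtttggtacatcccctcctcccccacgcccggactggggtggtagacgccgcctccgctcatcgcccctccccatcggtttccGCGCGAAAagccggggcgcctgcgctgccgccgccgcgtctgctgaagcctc
UHRF1, first window: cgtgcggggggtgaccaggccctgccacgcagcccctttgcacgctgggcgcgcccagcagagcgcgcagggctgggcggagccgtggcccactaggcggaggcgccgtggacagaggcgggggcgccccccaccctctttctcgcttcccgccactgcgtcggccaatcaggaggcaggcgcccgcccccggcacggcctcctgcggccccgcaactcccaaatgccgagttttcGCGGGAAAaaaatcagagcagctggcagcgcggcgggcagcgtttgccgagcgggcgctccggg
UHRF1, second window: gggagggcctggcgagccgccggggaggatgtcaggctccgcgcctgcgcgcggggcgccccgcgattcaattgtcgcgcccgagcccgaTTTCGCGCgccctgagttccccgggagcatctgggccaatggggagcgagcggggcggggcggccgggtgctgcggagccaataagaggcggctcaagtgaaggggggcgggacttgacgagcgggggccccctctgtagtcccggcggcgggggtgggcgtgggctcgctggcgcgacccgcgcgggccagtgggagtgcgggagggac

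MBD2, the reader that links methylated DNA to NuRD, was at 7.82, 7.999 and 7.97 in control arrays and at 8.03, 8.07 and 8.10 in SAM arrays. Every SAM array was above every control array, but SAM replicate 1 and control replicate 2 were close. The log2 difference was 0.14 (SE 0.12, 95% interval -0.14 to 0.42, adjusted p = 0.766 in limma), and it was 0.080 without control replicate 1. Groups that do not overlap with SAM higher were found in 7.12% of all rows, and 1 of 8 members met this.

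**Figure D3:**
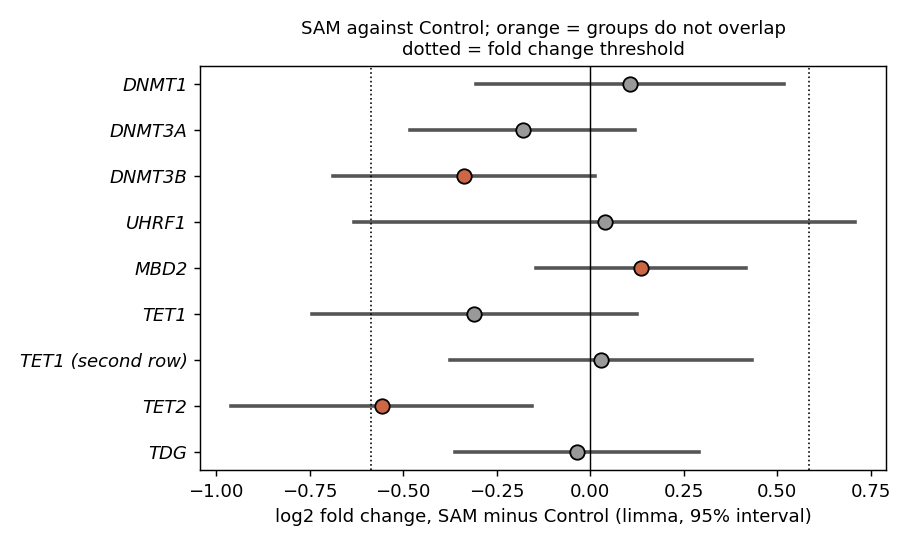
Log2 fold change of SAM against control (horizontal axis) with its 95% interval from limma for each of the 9 rows, with orange points where the 3 SAM and 3 control arrays do not overlap and dotted lines at the fold change threshold. The interval of TET2 (-0.96 to -0.15) lies below 0, and all others hold 0.

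Taken as deposited, 5 of the 8 members had a negative and 3 a positive log2 fold change, with a median of -0.11 against -0.021 over the 14884 named genes, of which 54.2% were negative. TDG is among the 5, and its sign turned under renewed normalization. RefSeq lists pseudogenes of DNMT3A, TET1 and TDG and a transcript antisense to TET2, and whether the probes of these rows also take up RNA from them is not known here.

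Partners of the members were described from 5 further lists. In total, 94 genes were measured in these and the S phase list, of which 0 passed both thresholds in limma and 6 had an unadjusted P under 0.05 (adjusted p, taken over all rows of the table, 0.574 to 0.996). The 6 make 6.38% of the 94, against 7.99% of all rows, and 1.09% of all rows passed both thresholds. Without overlap 9 of the 94 were lower and 8 higher (9.57% and 8.51%), against 7.95% and 7.12% of all rows. These were 5 lower and 0 higher in a broad list of other writers, readers and their partners, 1 and 3 in demethylation and 2 and 1 in NuRD. The remaining lists had 1 and 3 among SAM genes, 0 and 1 among germline genes and 0 and 0 among S phase genes. Of 24 genes in the list of other writers, readers and partners 20 were measured, of which 15 lay below 0 and 5 above (median -0.093). This list also holds the histone enzyme genes KDM1A, KDM1B, EHMT1, EHMT2 and SUV39H1, and USP7 and TRDMT1. Its split therefore does not describe writers and readers of DNA methylation alone. MBD5, of the methyl-CpG binding domain family, was at 5.73 ± 0.17 in control and 5.28 ± 0.14 in SAM arrays (SD, n = 3 in each group), a log2 difference of -0.45 (SE 0.15, adjusted p = 0.576 in limma). QSER1, whose product protects some CpG-rich regions from de novo methylation, differed by -0.29 (SE 0.12), and CTCF, an insulator protein whose binding depends on methylation at many sites, by -0.34 (SE 0.15).

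Of 22 genes of active demethylation and base excision repair 12 were measured, 6 on either side of 0 (median 0.026). The glycosylase gene NEIL2 (0.28, SE 0.12) had the smallest P of these, followed by CXXC5, a CXXC zinc finger gene (-0.30, SE 0.15), and D2HGDH, which clears a metabolite that inhibits TET enzymes (0.25, SE 0.13). Of 16 genes of NuRD and its partners 13 were measured, 8 above and 5 below 0 (median 0.076). CHD3, a NuRD ATPase, was at 7.81 ± 0.045 in control and 7.37 ± 0.15 in SAM arrays (SD, n = 3 in each group), a log2 difference of -0.44 (SE 0.13, adjusted p = 0.574 in limma). WDR77, a partner of the arginine methyltransferase PRMT5, differed by 0.36 (SE 0.12), and the NuRD subunit gene GATAD2B by -0.27 (SE 0.12).

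Among genes of the supply, use and recycling of SAM, 13 of 18 were measured, 5 above and 8 below 0 (median -0.061). The 13 include no gene of SAM synthesis itself. AMD1, which decarboxylates SAM for polyamine synthesis, differed by 0.28 (SE 0.12), the methionine synthase gene MTR by -0.26 (SE 0.12), and BHMT, a methyltransferase best known from liver, by -0.46 (SE 0.21) at a dim signal. Germline genes, which promoter methylation keeps silent in most somatic cells, were read as a downstream list. Of 30 listed genes 16 were measured, and their mean log2 signal was 3.76 to 3.85 in control and 3.82 to 3.94 in SAM arrays, under the median of every array. Of the 16, 11 lay above and 5 below 0 (median 0.046). TDRD9, a helicase gene of the piRNA pathway, was at 2.86 ± 0.22 in control and 3.28 ± 0.18 in SAM arrays (SD, n = 3 in each group). PIWIL1, which encodes another piRNA pathway protein, differed by 0.24 (SE 0.15), and DPPA2, a gene of early embryos and germ cells, by -0.23 (SE 0.15). These small medians were not stable: without control replicate 2 they were -0.034 for NuRD and -0.037 for demethylation, and without SAM replicate 1 that of the SAM genes was 0.031.

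**Figure D4:**
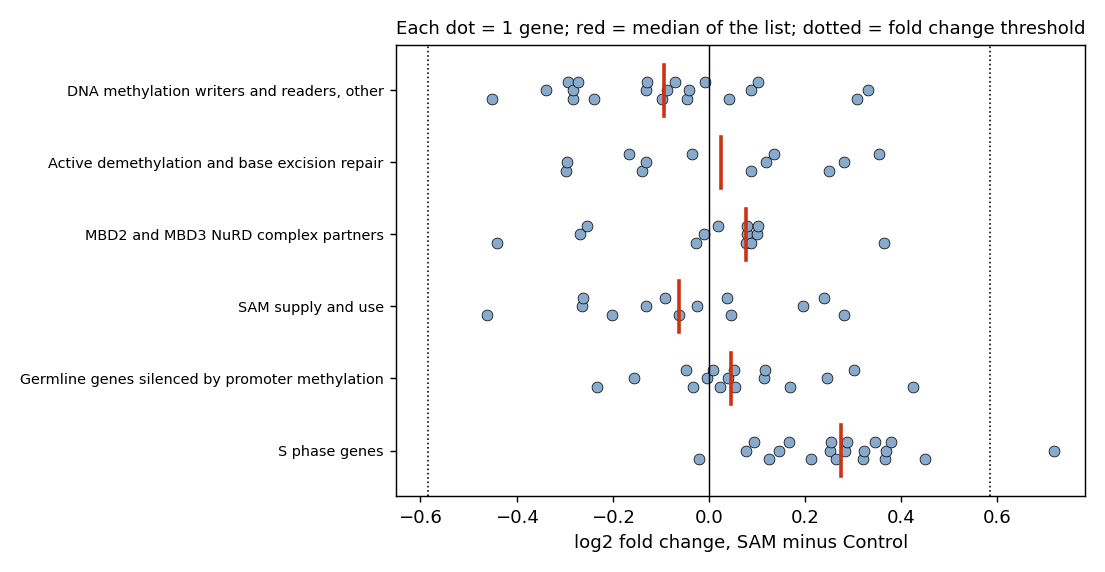
Log2 fold change of SAM against control (horizontal axis) for each measured gene of 6 lists (dots), with the median of each list in red and the fold change threshold dotted. The medians lie between -0.093 and 0.076, except that of the S phase genes at 0.27, which was -0.012 without control replicate 2.

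The rows most like TET2 over the 6 arrays were sought among the 16098 rows with 1 gene symbol. By Pearson correlation these were NIPBL, a cohesin loader (r = 0.999), the histone acetyltransferase gene KAT6B (r = 0.994) and ARHGEF35 (r = 0.992). NIPBL was at 8.20, 8.10 and 8.12 in control arrays and at 7.85, 7.66 and 7.98 in SAM arrays. Like TET2 it was lowest in SAM replicate 2 and highest in control replicate 1. The 6 arrays share the treatment contrast, so these correlations describe the pattern and carry no test.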

How the data were processed

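The data are Affymetrix Human Gene 2.0 ST arrays of RNA from 3 control and 3 SAM-treated MDA-MB-231 cultures. The authors deposited log2 signal intensities made by RMA in the Bioconductor package oligo (background correction, quantile normalization, summary per transcript cluster); its version and any filter are not given in the sources used here. Every one of the 53617 transcript clusters entered a limma fit (version 3.58.1, R 4.3.3; lmFit, then eBayes) without covariates, and Benjamini-Hochberg adjustment ran over the whole table. A call needed an unadjusted P under 0.01 and a fold change over 1.5. By the platform annotation 16098 transcript clusters have 1 gene symbol. The other 37519 were counted as unnamed, as was any with several symbols, and a gene found only in such a row counts as not measured. IDs below the lowest annotated one belong to 3575 of the unnamed transcript clusters, which stayed in the fit. Where a gene had several rows (779 genes), its brightest was used as the main row. Precision is limited by the number of arrays. The members and lists were chosen with earlier results of these data known. The text names every member and, from each list, the 3 genes with the smallest P; marker genes are named from fixed marker lists. The procedure was tested on simulated data. The fold change checks required there concerned changes larger than any seen in the members. How often changes of the members' size would be called is not reported here. Promoter windows came from RefSeq (GRCh38.p14), where 9 of 9 members matched by symbol. Alternatives were the replicate block, renewed quantile or cyclic loess normalization, median centring, a trended and robust eBayes, leaving out dim or unnamed rows, other thresholds, averaging a gene's rows, and leaving out each array.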

Additional observations from a re-analysis of the deposited data

How the results depend on the processing

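With 3 arrays in each group the precision is low. The dimmer row of TET1 lay under the median of every array, and no background level of the arrays was measured. The 582 calls among all 53617 rows became 359 with the dim rows left out and 165 among the 16098 rows with 1 gene symbol. Both of these settings test fewer rows, so their counts are not on the same base. With no fold change minimum there were 921 rows at an unadjusted P under 0.01 in limma, or 4285 under 0.05. Leaving out each array in turn gave 463 to 934 calls, the latter without control replicate 2. The count of members called was 0 under all 8 other settings and 0 to 1 with an array left out, the 1 being TET2 without SAM replicate 3 (log2 fold change -0.69). Signs turned for DNMT1 without control replicate 2 (-0.064, to 0.22 without control replicate 3), for UHRF1 without control replicate 2 (-0.32, to 0.27 without control replicate 3) and without SAM replicate 3 (-0.00068), for TDG with renewed quantile (0.027) or cyclic loess normalization (0.024), and for the dimmer row of TET1 with median centring (-0.0095). With an array left out TDG lay between -0.10 and 0.048, and the dimmer row of TET1 between -0.11 and 0.14. The cause of these turns was not tested. Of the listed genes 0 were called under any setting. TET2 and DNMT3B stayed negative throughout.

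Arrays of the 2 groups share replicate numbers, and nothing states that a number marks 1 experiment. For replicates 1, 2 and 3 the correlation of the same-numbered arrays' deviations was -0.0027, -0.075 and 0.11, and control replicate 1 correlated best with SAM replicate 2 (0.11). With 3 arrays in each group these correlations cannot decide whether the arrays are paired. The paper names 3 independent sets of control and treated RNA, without linking replicate numbers to them. The main fit left the arrays unpaired. With a replicate block 659 rows were called and 0 members, and the unadjusted P in limma was 0.0175 for TET2 and 0.0805 for DNMT3B.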

Other observations

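Within each array, the signal of UHRF1 can be read against the mean of the 20 measured S phase genes. This difference was 0.32, 0.063 and 0.35 in the control arrays and -0.046, 0.10 and -0.017 in the SAM arrays on the log2 scale. SAM replicate 2 lay above control replicate 2, so the groups overlapped, and the other controls were above all 3 SAM arrays. For DNMT1 the same difference was 1.32, 1.56 and 1.23 in control arrays and 1.10, 1.28 and 1.23 in SAM arrays, with overlap. The choice of this measure followed from seeing the values of control replicate 2, and it carries no test.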
